A study of Mus musculus with 18 samples.

Results

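The expression of 10 genes of the p53 and BCL2 cell death programmes was followed in bone marrow-derived macrophages (BMDM) whose choline metabolism had been inhibited: *Cdkn1a*, *Mdm2*, *Tnfrsf10b*, *Bbc3*, *Pmaip1*, *Bcl2l11*, *Bax*, *Mcl1*, *Bcl2l1* and *Bcl2*. They were chosen by name, as the rows of the count table whose Ensembl identifier carries one of these symbols in the annotation of the GRCm38 mouse genome. All 10 were found among the 55385 genes listed, and all 10 were among the 14979 genes that reached 10 counts in 2 or more libraries, to which tests were limited. The cells were grown from the marrow of female C57BL/6J mice, 12 weeks old, in medium with L-929 culture supernatant. For 24 h they received vehicle (Veh, DMSO), the choline uptake inhibitor hemicholinium-3 (HC3, 250 µM) or the choline kinase inhibitor RSM-932a (RSM, 5 µM), so the doses of the inhibitors differ. A further 24 h followed either without stimulus (naïve, M[0]) or with IL-4 at 20 ng/mL (M[IL-4]). Each of the 6 groups has 3 libraries. The labels name 3 individual mice as the source, but do not say which replicate number belongs to which mouse.

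As background, p53 is a transcription factor that is held in check by the ubiquitin ligase Mdm2 and is controlled mostly through the stability of its protein. Once stabilised, it induces genes that stop the cell cycle, such as *Cdkn1a* (p21), its own inhibitor *Mdm2*, and genes of cell death, such as *Bbc3* (Puma), *Pmaip1* (Noxa), *Bax* and the TRAIL death receptor *Tnfrsf10b*. The BCL2 family decides whether the outer mitochondrial membrane is opened: Bax forms the pore, Mcl-1, Bcl-xL (*Bcl2l1*) and Bcl-2 prevent this, and BH3-only proteins (Puma, Noxa and Bim, the product of *Bcl2l11*) bind and neutralise the protective members or activate Bax. Several of these genes also respond to other regulators, including the integrated stress response through ATF4 and CHOP (*Ddit3*). Mcl-1 is known for a short-lived mRNA and protein and for its role in the survival of myeloid cells.

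Libraries held 17457796 to 19522255 counts. The labelled cell type was checked on 7 macrophage markers (*Adgre1*, *Csf1r*, *Cd68*, *Fcgr1*, *Mertk*, *Lyz2* and *Cd14*), none of which was at 0 in any group. Their summed level was 20039.8 to 21114 CPM (counts scaled to the size of the library, with TMM factors) under Veh, 8650.02 to 9735 CPM under HC3 and 15598 to 17051 CPM under RSM in naïve cells. With IL-4 it was lower under Veh, at 11645 to 11959.6 CPM, and was 7409 to 8582 CPM under HC3 and 10471 to 12809.5 CPM under RSM, where the last range overlapped with Veh. Stromal markers were present too. The sum of 7 genes was 527 to 888 CPM in Veh, 1233 to 1699 CPM in HC3 and 1036 to 1486 CPM in RSM in M[0]. In M[IL-4] it was 285 to 665 CPM in Veh, 563 to 1061 CPM in HC3 and 540 to 1077 CPM in RSM. Collagens made up most of that sum, and *Lum* was at 0 in 5 of the 6 groups. *Dcn*, another gene of the sum, was lower with RSM. Its mean was 8.496 CPM under Veh, 7.908 CPM under HC3 and 2.988 CPM under RSM in naïve cells. With IL-4 its mean was 5.929, 5.472 and 2.017 CPM, in the same order. Mean *Pdgfrb* was 31.4 CPM under Veh, 49.7 CPM under HC3 and 52.3 CPM under RSM in naïve cells, and 13.4, 20.2 and 22.5 CPM with IL-4. Mean *Pdgfra* was 22.1, 19.0 and 16.2 CPM in naïve cells and 15.4, 19.8 and 15.0 CPM with IL-4, in the same order. Summed markers of neutrophils, B cells, T cells, dendritic cells and erythroid cells stayed at or under 2.90 CPM in every library. Among M[0] libraries, mitochondrially encoded transcripts took 1.68 to 2.03% of counts under Veh, 2.51 to 3.45% under HC3 and 0.709 to 0.814% under RSM. The part of these differences in the results below was not tested, and fewer cells of a type cannot be told apart from less RNA per cell.

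The starts of 3 genes that rose are shown first, because they hold the letters of a p53 half-site, the 10-base unit that p53 binds in pairs. RefSeq promoters of GRCm38.p6 were searched for 8 of the 10 genes (14 start sites). *Tnfrsf10b* had no entry, and *Pmaip1* was left out of the search. Each sequence is the 250 bases just before the start, written 5′ to 3′ on the strand of the gene, and capitals mark the half-site matches. *Cdkn1a* lies on chromosome 17 (plus strand, chr17:29090729-29090978), *Mdm2* on chromosome 10 (minus strand, chr10:117710759-117711008) and *Bax* on chromosome 7 (minus strand, chr7:45466899-45467148).
Cdkn1a: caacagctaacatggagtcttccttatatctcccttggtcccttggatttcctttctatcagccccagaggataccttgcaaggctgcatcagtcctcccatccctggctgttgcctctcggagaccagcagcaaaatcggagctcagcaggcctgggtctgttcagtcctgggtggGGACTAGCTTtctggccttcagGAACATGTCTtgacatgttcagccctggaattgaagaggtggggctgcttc
Mdm2: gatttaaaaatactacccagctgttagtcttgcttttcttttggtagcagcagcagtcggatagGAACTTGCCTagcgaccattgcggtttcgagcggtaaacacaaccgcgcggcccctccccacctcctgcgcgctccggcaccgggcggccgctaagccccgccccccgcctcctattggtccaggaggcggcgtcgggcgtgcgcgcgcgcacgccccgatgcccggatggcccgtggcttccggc
Bax: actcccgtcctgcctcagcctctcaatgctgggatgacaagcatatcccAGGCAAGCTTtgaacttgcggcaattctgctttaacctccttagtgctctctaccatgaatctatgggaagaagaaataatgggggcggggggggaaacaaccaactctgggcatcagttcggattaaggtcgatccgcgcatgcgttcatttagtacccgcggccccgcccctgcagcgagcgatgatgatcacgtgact
A half-site on either strand was found in these 3 of the 14 start sites and in 7.13% of all 32851 promoters of the table. In *Cdkn1a* there were 2 matches with 12 bases between them. Only exact matches were marked, and the stretch directly after the second match departs from a half-site only in its first base. The 2 marked matches are therefore not necessarily a pair. The forkhead element TGTTTAC was found at starts of *Bbc3*, *Bcl2l11* and *Mdm2*, and in 3.17% of all promoters. The C/EBP-ATF element TTGCATCA was in 0 of the 14 (0.791% of all promoters), as was the palindromic STAT6 element (5.85% of all promoters). More motifs were looked at than are given here. These matches describe letters in a short window and are no evidence of binding.

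**Figure D1:**
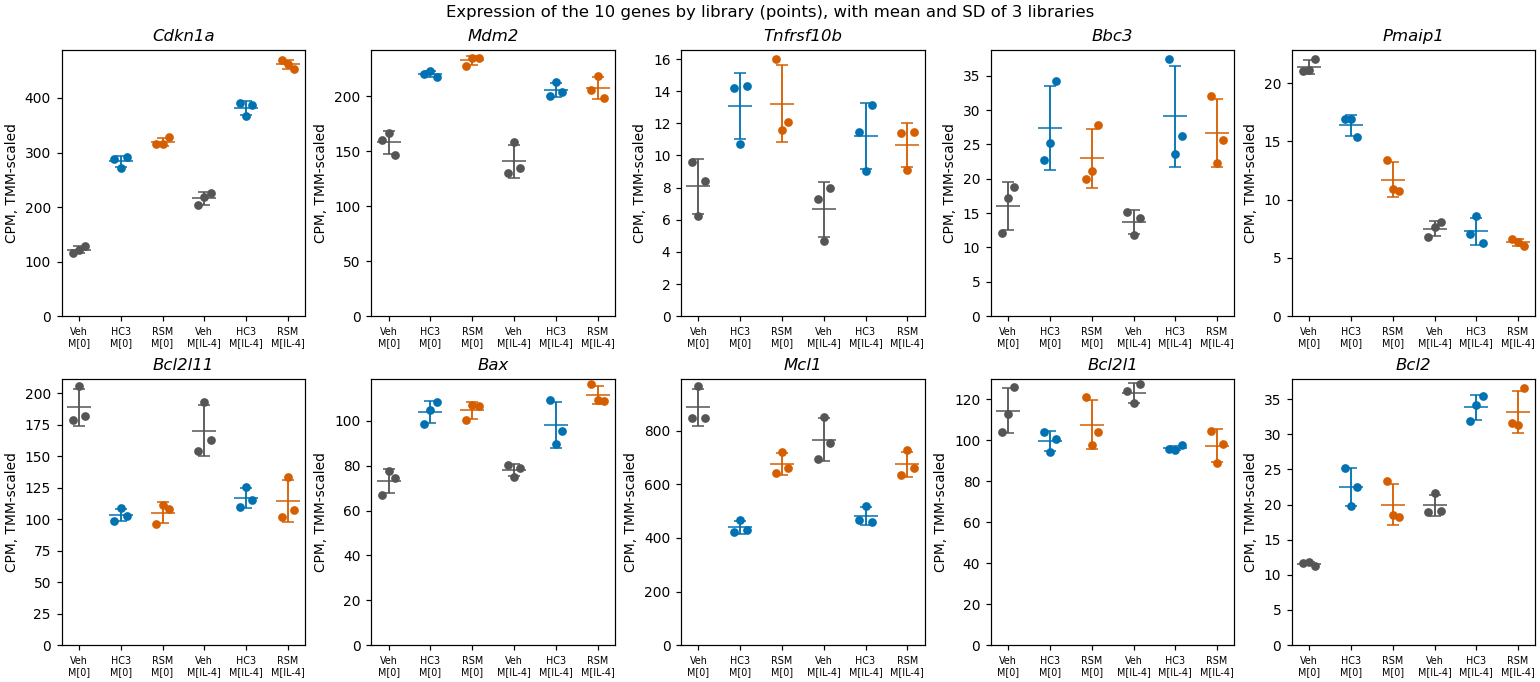
Expression of the 10 genes in each library (points, CPM scaled by TMM, linear axes from 0), with the mean and SD of the 3 libraries of each of 6 groups. *Cdkn1a*, *Mdm2*, *Bax*, *Bbc3*, *Bcl2* and *Tnfrsf10b* sat higher with either inhibitor than with Veh in both polarizations, *Bcl2l11* sat lower, and *Mcl1* was lowest with HC3.

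To ask whether choline inhibition moved these genes, each inhibitor was compared with Veh within each polarization. In the text, a gene rose or fell where its adjusted p (edgeR quasi-likelihood test, Benjamini-Hochberg over all genes tested) was under 0.05, and it was called where its log2 fold change was also at least 1 or at most -1. In M[0], 6 of the 10 genes rose and 3 fell with HC3, where 22.6% of all genes tested rose and 21.5% fell. With RSM 5 rose and 3 fell, against 20.5% and 20.7% of all genes. Under IL-4, 6 rose and 3 fell with HC3, against 18.9% and 19.9%, and 6 rose and 2 fell with RSM, against 20.1% and 18.5%. Most of these changes were under 2-fold: of 40 comparisons of a gene with Veh, 34 passed the adjusted p and 5 were called. Taken singly, 2 of the 10 genes were called with HC3 in M[0], 1 with RSM in M[0], 1 with HC3 in M[IL-4] and 1 with RSM in M[IL-4], where 12%, 11.6%, 10.3% and 11% of all genes were called. The libraries of inhibitor and Veh did not overlap for 10, 9, 9 and 9 of the 10 genes, against 52.2%, 51.5%, 45.9% and 46.6% of all genes tested. *Cdkn1a*, *Mdm2*, *Tnfrsf10b*, *Bax* and *Bcl2* rose in all 4 comparisons, and *Bcl2l11* fell in all 4. The comparisons within a polarization share their Veh libraries. The 10 genes had a median log2 fold change of 0.49 for HC3 and 0.52 for RSM without IL-4, and of 0.44 for HC3 and 0.54 for RSM with it, where the median of all genes tested was between 0.01 and 0.02. The genes were chosen with earlier results of these data known, so these shares and medians describe the set and do not test it.

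**Figure D2:**
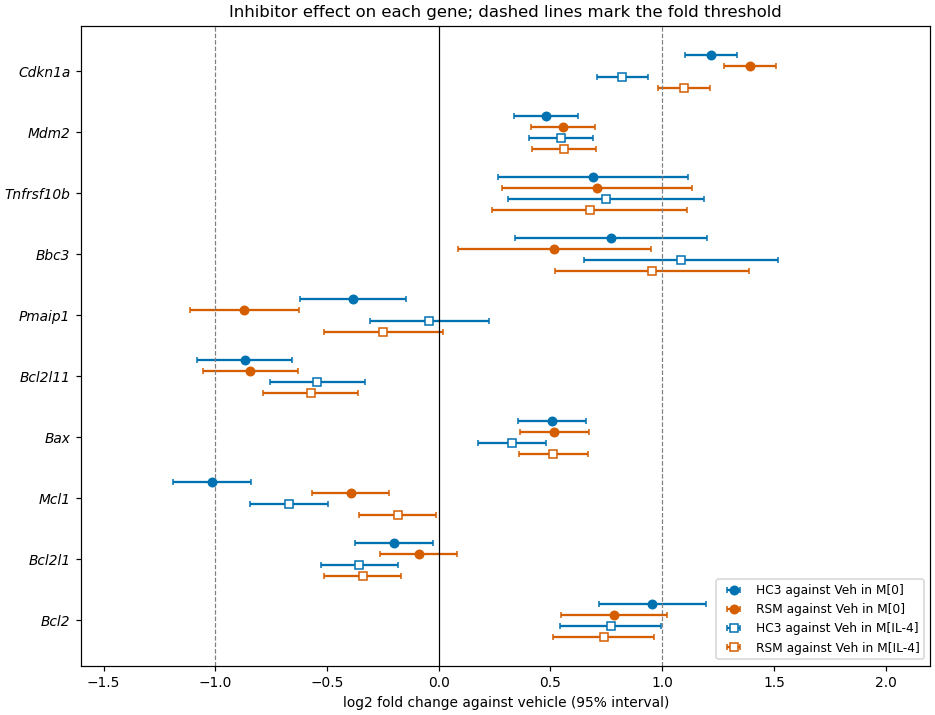
log2 fold change against Veh for each gene (points) with its 95% interval from the edgeR fit (bars), for HC3 and RSM in M[0] (filled) and in M[IL-4] (open), 3 libraries a group. Dashed lines mark the fold threshold of 1 and -1, which *Cdkn1a* passed in 3 comparisons, *Bbc3* in 1 and *Mcl1* in 1.

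Of the 3 members that are p53 targets outside the BCL2 family (*Cdkn1a*, *Mdm2* and *Tnfrsf10b*), *Cdkn1a*, which encodes the cyclin-dependent kinase inhibitor p21, had the largest log2 fold change in each comparison with Veh. Without IL-4 its libraries were at 116, 122 and 128 CPM under Veh, at 287, 272 and 291 CPM under HC3, and at 316, 315 and 329 CPM under RSM. All libraries with an inhibitor lay above all Veh libraries, and the spread within a group was small beside the distance between groups. This came to 2.33-fold with HC3 (log2 fold change 1.22, SE 0.06, adjusted p = 3.93e-12) and 2.62-fold with RSM (1.39, SE 0.06, adjusted p = 1.01e-12). In M[IL-4] the Veh libraries began higher, at 203, 218 and 226 CPM. With HC3 they were at 390.5, 368 and 387 CPM, and with RSM at 469.8, 462 and 452 CPM. The rise there was 1.77-fold with HC3 (log2 fold change 0.82, adjusted p = 1.13e-09), short of the fold threshold, and 2.14-fold with RSM (1.10, adjusted p = 2.28e-11). The 6 groups could be put in order with no overlap between neighbours: Veh M[0], Veh M[IL-4], HC3 M[0], RSM M[0], HC3 M[IL-4] and RSM M[IL-4]. In GRCm38, as for all positions here, *Cdkn1a* (chromosome 17, 29090976 to 29100727) shares 7.68% of its exonic length with AC167363.2 on the opposite strand, and whether counting used strand is not given in the sources used here.

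*Mdm2* (chromosome 10, 117688875 to 117710758), whose product is the ligase that removes p53, rose in each comparison by a similar amount. Its M[0] mean was 158 ± 10.1 CPM (SD, n = 3) under Veh, 221 ± 2.55 under HC3 and 233 ± 4.09 under RSM. With IL-4 it was 141 ± 15.0 CPM in Veh, 206 ± 6.46 in HC3 and 208 ± 9.98 in RSM. Log2 fold changes ranged from 0.48 to 0.56, with adjusted p-values of 2.13e-06 to 1.25e-05. No library with an inhibitor overlapped with Veh in the same polarization.

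*Tnfrsf10b* (chromosome 14, 69767472 to 69784411), the receptor for the death ligand TRAIL, was the gene with the lowest counts (81 to 300 per library). It was at 9.62, 6.23 and 8.39 CPM in Veh M[0], at 14.2, 10.7 and 14.3 CPM with HC3 and at 16, 11.6 and 12.1 CPM with RSM. The M[IL-4] libraries were at 7.32, 4.70 and 7.95 CPM in Veh, 11.5, 9.02 and 13.1 CPM in HC3, and 11.4, 9.10 and 11.4 CPM in RSM. Replicate 2 was the lowest library of its group in all 6 groups, and no library with an inhibitor overlapped with Veh of its polarization. In naïve cells the log2 fold change was 0.69 for HC3 and 0.71 for RSM, and under IL-4 it was 0.75 for HC3 and 0.68 for RSM, with adjusted p-values of 0.00767 to 0.0150. Without replicate 3, the gene passed in none of the 4 comparisons (highest adjusted p over all alternatives 0.113), and without replicate 1 it did not pass with RSM in either polarization.

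Among the BH3-only genes, *Bbc3*, *Pmaip1* and *Bcl2l11* did not move together. *Bbc3* (Puma, chromosome 7, 16308393 to 16318205) was higher with the inhibitors. In M[0] its libraries were at 12.2, 17.2 and 18.8 CPM in Veh, 22.7, 25.2 and 34.3 CPM in HC3, and 19.9, 21.2 and 27.8 CPM in RSM. Groups did not overlap, although the lowest RSM library was close to the highest Veh library. It rose 1.71-fold with HC3 (log2 fold change 0.77, SE 0.20, adjusted p = 0.00477, and 0.0545 without replicate 3). With RSM the log2 fold change was 0.52 (SE 0.20, adjusted p = 0.0514), which passed when the replicate number was fitted as a block within each polarization (adjusted p = 2.81e-05). In M[IL-4] the Veh libraries were at 15.2, 11.8 and 14.2 CPM, those with HC3 at 37.5, 23.6 and 26.2 CPM, and those with RSM at 32.0, 22.2 and 25.7 CPM. Replicate 1 was highest in each of these 3 groups. The rise was 2.12-fold with HC3 (log2 fold change 1.08, SE 0.21, adjusted p = 0.000357), which fell to 0.94 without replicate 1 and was then no longer called, and 1.94-fold with RSM (0.96, adjusted p = 0.00109).

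*Pmaip1* (Noxa), which binds and neutralises Mcl-1, fell with the inhibitors in M[0]. Veh libraries were at 21.0, 21.1 and 22.1 CPM, HC3 libraries at 16.9, 16.9 and 15.4 CPM, and RSM libraries at 13.4, 10.9 and 10.8 CPM. The 3 groups did not overlap. The log2 fold change was -0.38 with HC3 (SE 0.11, adjusted p = 0.0104) and -0.87 with RSM (SE 0.12, adjusted p = 6.32e-06). Without replicate 3 the HC3 difference had an adjusted p of 0.126. In M[IL-4] all groups were low, at 7.52 ± 0.626 CPM (SD, n = 3) in Veh, 7.30 ± 1.17 in HC3 and 6.33 ± 0.305 in RSM. There the log2 fold change was -0.04 with HC3 (95% interval -0.31 to 0.22, adjusted p = 0.822) and -0.25 with RSM (-0.52 to 0.02, adjusted p = 0.137).

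*Bcl2l11* (Bim, chromosome 2, 128126038 to 128162547), the BH3-only gene with the most counts, fell in all 4 comparisons. In M[0] it was at 179, 206 and 182 CPM in Veh, 98.6, 109 and 103 CPM in HC3, and 95.7, 111 and 108 CPM in RSM. Among M[IL-4] libraries it was at 154, 193 and 163 CPM in Veh, 109, 126 and 115 CPM in HC3, and 102, 134 and 108 CPM in RSM. Every library with an inhibitor lay below every Veh library of its polarization. Naïve cells gave log2 fold changes of -0.87 for HC3 (SE 0.10, adjusted p = 1.16e-06) and -0.84 for RSM (adjusted p = 1.74e-06), and IL-4-treated cells gave -0.54 (adjusted p = 0.000269) and -0.57 (adjusted p = 0.000150). Under all 12 alternatives it kept its direction and stayed past the adjusted p in each.

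*Bax* (chromosome 7, 45461697 to 45466898), the pore-forming effector, rose modestly. Its mean was 73.2 ± 5.49 CPM (SD, n = 3) in Veh M[0], 104 ± 5.04 with HC3 and 105 ± 3.77 with RSM. Under IL-4 it was 78.2 ± 2.74 CPM in Veh, 98.1 ± 10.2 with HC3 and 112 ± 4.12 with RSM. Libraries with an inhibitor were above Veh in each case. HC3 gave a log2 fold change of 0.51 without and 0.33 with IL-4, and RSM gave 0.52 without and 0.51 with it, with adjusted p-values of 1.23e-05 to 0.00138. *Bax* shares 12.2% of its exonic length with the same-strand gene Gm45808, and 17.6% of the transcript compared was near-identical to it, so that counts could be split between them.

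The protective genes moved in opposite directions. *Mcl1* (chromosome 3, 95658788 to 95663176) had the highest mean of the 10 genes per length in every group. In Veh M[0] it was at 259 ± 20.1 CPM per kb of exon (SD, n = 3), against 46.4 ± 3.48 for *Bax*, the next. In the other groups *Cdkn1a* was next, and came closest with HC3 in M[IL-4], at 107 against 141 CPM per kb. The M[0] libraries of *Mcl1* were at 847, 966 and 847 CPM in Veh, 420.3, 468 and 429 CPM in HC3, and 643, 721 and 661 CPM in RSM. HC3 thus brought it to about 0.495 of Veh (log2 fold change -1.01, SE 0.08, adjusted p = 1.04e-08), just past the fold threshold, whereas with library sizes alone in place of TMM it was -0.97 and not called. RSM lowered it less (-0.39, SE 0.08, adjusted p = 0.000757). The M[IL-4] libraries were at 694, 852 and 753 CPM in Veh, 468, 518 and 458 CPM in HC3, and 636, 727 and 661 CPM in RSM. The HC3 group stood clear of Veh (-0.67, adjusted p = 2.78e-06), while the RSM group overlapped with it (-0.18, 95% interval -0.36 to -0.01, adjusted p = 0.0877, and 0.000487 with the replicate block). Replicate 2 was the highest library in all 6 groups.

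*Bcl2* (chromosome 1, 106538178 to 106714274), the founding member of the family, was low but rose in all comparisons. Veh M[0] libraries were at 11.7, 11.8 and 11.3 CPM, HC3 libraries at 25.3, 19.8 and 22.5 CPM, and RSM libraries at 23.4, 18.5 and 18.2 CPM. In M[IL-4] Veh libraries were at 18.9, 21.6 and 19.0 CPM, HC3 libraries at 31.9, 34.1 and 35.5 CPM, and RSM libraries at 31.5, 31.3 and 36.6 CPM. Inhibitor and Veh libraries did not overlap. The rise was 1.94-fold with HC3 in M[0] (log2 fold change 0.96, SE 0.11, adjusted p = 1.42e-06), 1.72-fold with RSM (0.78, adjusted p = 1.71e-05), and 1.70-fold and 1.67-fold in M[IL-4] (0.77, adjusted p = 1.30e-05, and 0.74, adjusted p = 1.94e-05). The first of these passed the fold threshold without replicate 2 and with library sizes alone (at most 1.04). *Bcl2* shares 6.09% of its exonic length with D630008O14Rik on the opposite strand.

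*Bcl2l1* (Bcl-xL, chromosome 2, 152780668 to 152831728) had small differences. In M[0] it was at 114 ± 11.1 CPM (SD, n = 3) in Veh, 99.6 ± 5.06 in HC3 and 108 ± 12.0 in RSM. The log2 fold change was -0.20 with HC3 (95% interval -0.37 to -0.03, adjusted p = 0.0567), which passed under 7 of 12 alternatives, the replicate block among them (adjusted p = 0.0126), and -0.09 with RSM (-0.26 to 0.08, adjusted p = 0.412). The highest HC3 library and the lowest Veh library were both at 104 CPM. With IL-4 it was at 123 ± 4.86 CPM in Veh, 96.3 ± 1.07 in HC3 and 97.3 ± 8.10 in RSM, and fell with both (-0.36, adjusted p = 0.00201, and -0.34, adjusted p = 0.00277). Without replicate 3 the adjusted p of both falls was just over the threshold, at most 0.0519.

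Because *Mcl1* outweighs the other protective genes, the family members among the 10 genes were also summed on the per-length scale, as a description with no test. Other genes of the family, such as *Bmf*, were left out. The sum of *Mcl1*, *Bcl2l1* and *Bcl2* in naïve cells was 286 ± 20.0 CPM per kb (SD, n = 3) under Veh, 153 ± 6.07 under HC3 and 223 ± 9.70 under RSM. With IL-4 the sum was 253 ± 22.7 under Veh, 166 ± 9.23 under HC3 and 222 ± 11.9 under RSM. *Mcl1* made up 82.8 to 91.6% of this sum over the libraries, and *Bcl2* at most 2.43%. The sum of *Bax*, *Bcl2l11*, *Bbc3* and *Pmaip1* in naïve cells was 85.3 ± 6.42 CPM per kb under Veh, 97.7 ± 5.87 under HC3 and 94.6 ± 4.23 under RSM. With IL-4 these were 80.0 ± 0.198, 93.2 ± 8.81 and 99.9 ± 3.69 CPM per kb. *Bax* made up most of this sum, with a mean of 46.4 CPM per kb in Veh M[0] and 70.8 in RSM M[IL-4]. The protective sum in HC3 lay below all Veh libraries in either polarization, and that in RSM did so in M[0] (217 to 234 against 272 to 309 CPM per kb) but overlapped with Veh in M[IL-4]. The opposing sum lay above Veh with either inhibitor in M[IL-4] and with HC3 in M[0] (91.7 to 103 against 78.3 to 90.8 CPM per kb), whereas RSM M[0] (89.9 to 98.1 CPM per kb) overlapped with Veh. These are transcript levels and do not measure the proteins.

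**Figure D3:**
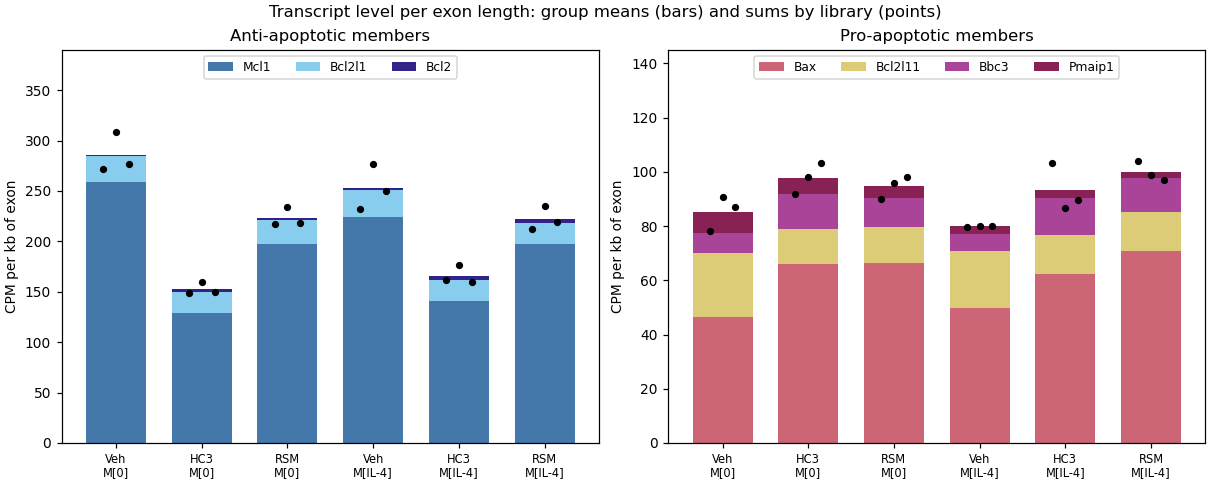
Transcript level per exon length (CPM per kb) of 3 anti-apoptotic and 4 pro-apoptotic genes, as stacked group means (bars from 0) with the sum in each of 3 libraries (points). *Mcl1* fills most of the left panel and is lowest with HC3, at 128 CPM per kb in M[0], and the pro-apoptotic sums stay between 78.3 and 104 CPM per kb in all libraries.

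To see what IL-4 itself did, M[IL-4] was compared with M[0] under each pretreatment. With Veh, *Cdkn1a* and *Bcl2* rose and *Pmaip1* fell, where 31% of all genes tested changed. *Cdkn1a* rose by a log2 fold change of 0.82 (adjusted p = 1.92e-09) and *Bcl2* by 0.77 (adjusted p = 3.68e-05). *Pmaip1* fell from 21.4 ± 0.577 to 7.52 ± 0.626 CPM (SD, n = 3), a log2 fold change of -1.51 (SE 0.12, adjusted p = 1.76e-08), and was the only one of the 10 called, where 6.66% of all genes were. The other 7 genes had log2 fold changes of -0.28 to 0.11 and did not pass. Of these, *Mdm2* (-0.17, adjusted p = 0.0737), *Mcl1* (-0.21, adjusted p = 0.0587) and *Bcl2l11* (-0.15, adjusted p = 0.279) passed with the replicate block (adjusted p = 0.00689, 0.000102 and 0.0101). Under it, 43.1% of all genes passed. That block is fitted within each polarization, so its p-values for a comparison between polarizations can be too small. With a block common to both polarizations, the 3 adjusted p-values were 0.0261, 0.00115 and 0.0414.

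The same 3 genes passed under either inhibitor. With HC3, *Cdkn1a* rose by 0.43 (adjusted p = 1.59e-05), *Bcl2* rose by 0.59 (adjusted p = 0.000713) and *Pmaip1* fell by 1.17 (adjusted p = 1.31e-06), where 14.7% of all genes changed and 3.97% were called. With RSM, *Cdkn1a* rose by 0.53 (adjusted p = 8.56e-07), *Bcl2* rose by 0.73 (adjusted p = 6.22e-05) and *Pmaip1* fell by 0.89 (adjusted p = 3.41e-05), where 15.5% changed and 4.26% were called. These values are log2 fold changes. For the other 7 genes under the inhibitors, log2 fold changes were between -0.31 and 0.21. With the replicate block, *Bcl2l11* (adjusted p = 0.00861) and *Mcl1* (adjusted p = 0.0141) also passed with HC3, both higher in M[IL-4]. With RSM, *Mdm2* (adjusted p = 0.0104) and *Tnfrsf10b* (adjusted p = 0.0380) passed under it, both lower. Of all genes, 27.09% with HC3 and 26.998% with RSM then passed. With a block common to both polarizations, *Bcl2l11* with HC3 (adjusted p = 0.0383) and *Mdm2* with RSM (adjusted p = 0.0413) still passed. *Mcl1* with HC3 (adjusted p = 0.0504) and *Tnfrsf10b* with RSM (adjusted p = 0.0702) did not.

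**Figure D4:**
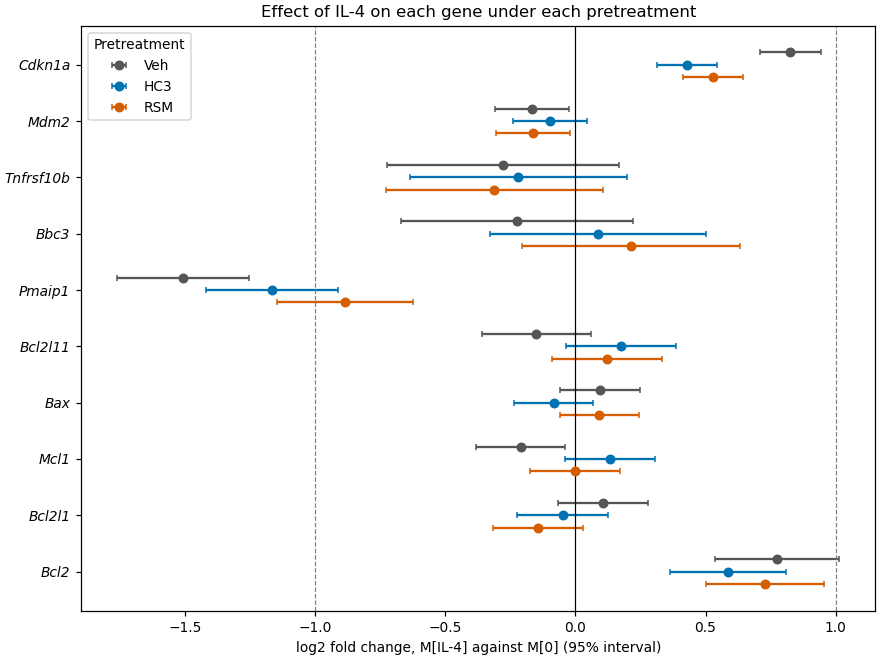
log2 fold change of M[IL-4] against M[0] for each gene under Veh, HC3 and RSM (points) with 95% intervals from the edgeR fit (bars), 3 libraries a group. *Pmaip1* lies furthest left under each pretreatment (-1.51, -1.17 and -0.89), and *Cdkn1a* and *Bcl2* lie to the right of 0 under each.

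Whether IL-4 altered the response to an inhibitor was tested as an interaction. For *Cdkn1a* the rise was smaller in M[IL-4], by a log2 of -0.40 for HC3 (SE 0.08, adjusted p = 0.00416) and -0.30 for RSM (SE 0.08, adjusted p = 0.0202). For *Pmaip1* the fall with RSM was smaller in M[IL-4] (0.62, SE 0.17, adjusted p = 0.0277). The other interactions of the 10 genes did not pass, where 6.48% of all genes passed for HC3 and 9.19% for RSM. Under the replicate block, *Bcl2l11* (0.33 for HC3, adjusted p = 0.00115, and 0.27 for RSM, adjusted p = 0.00532) and *Mcl1* (0.35, adjusted p = 8.90e-05, and 0.21, adjusted p = 0.00813) passed as well, as did *Bbc3* for RSM (0.43, adjusted p = 0.0180), and 17.3% and 19.4% of all genes then did. With a block common to both polarizations, *Bcl2l11* and *Mcl1* still passed for each inhibitor, whereas *Bbc3* for RSM did not (adjusted p = 0.304). The *Cdkn1a* value for HC3 had an adjusted p of 0.0635 without replicate 2 and 0.189 without replicate 3, and the 2 RSM values lost significance without any one replicate and with no count filter.

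At these doses, HC3 and RSM libraries were also compared directly. *Mcl1* was lower with HC3 than with RSM in M[0] (439 ± 25.4 against 675 ± 41.0 CPM, SD, n = 3, log2 difference -0.62, adjusted p = 3.57e-05) and in M[IL-4] (482 ± 32.2 against 675 ± 47.1 CPM, -0.49, adjusted p = 0.000437). *Cdkn1a* was lower with HC3 as well, by a log2 difference of -0.17 in M[0] (adjusted p = 0.0400) and -0.27 in M[IL-4] (adjusted p = 0.00196). *Pmaip1* was higher with HC3 in M[0] (0.49, adjusted p = 0.00774). Of all genes tested, 13.6% differed in M[0] and 13% in M[IL-4]. The *Mcl1* difference in M[0] passed under all 12 alternatives, whereas the 4 others each lost significance without at least 1 replicate. For the remaining genes the intervals included sizeable differences, for example -0.43 to 0.40 for *Tnfrsf10b* in M[0]. *Bbc3* in M[0] (adjusted p = 0.466) and *Bax* in M[IL-4] (adjusted p = 0.108) passed with the replicate block (adjusted p = 0.0290 and 0.00618). Of all genes, 26.6% in M[0] and 24.1% in M[IL-4] then passed. With a block common to both polarizations, neither *Bbc3* (adjusted p = 0.345) nor *Bax* (adjusted p = 0.0834) did.

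The rest of the pathway was read from lists of genes assembled by function, also with earlier results of these data known. Of 23 tested genes among 24 other p53 targets, 7 rose and 3 fell with HC3 in M[0], 11 rose and 3 fell with RSM in M[0], 9 rose and 5 fell with HC3 in M[IL-4], and 11 rose and 4 fell with RSM in M[IL-4]. Of all genes tested, 18.9 to 22.6% of all genes rose and 18.5 to 21.5% fell over these 4 comparisons, and the same shares stand behind the counts of the lists that follow. With the replicate block, 12 of the 23 rose and 5 fell with HC3 in M[0], while the share of all genes that changed went from 44.1% to 53.4%. Their median log2 fold change was 0.19, 0.26, 0.27 and 0.29 in this order. *Sesn2*, which encodes an inhibitor of mTORC1 signalling, went from 24.1 ± 2.50 CPM (SD, n = 3) in Veh M[0] to 106 ± 10.6 with HC3 and 112 ± 5.43 with RSM. *Gdf15*, a stress-induced cytokine, went from 13.8 ± 0.163 to 122 ± 19.7 and 88.6 ± 4.06 CPM. *Gadd45a*, a growth arrest gene, rose from 12.7 ± 3.44 to 57.6 ± 8.71 and 37.0 ± 0.872 CPM. These 3 were called in all 4 comparisons, with log2 fold changes of 1.55 to 3.14. All 3 are known as targets of the ATF4 and CHOP stress response too. *Sesn1*, another sestrin, went the other way, from 219.7 ± 10.3 to 36.8 ± 5.57 and 46.3 ± 4.17 CPM, with log2 fold changes of -2.58 to -1.70.

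Of 11 tested genes among 13 for p53 and its regulators, 3, 2, 2 and 2 rose and 2 fell in each of the 4 comparisons, close to the shares of all genes. *Trp53*, which encodes p53, was at 77.5 ± 4.85 CPM (SD, n = 3) in Veh M[0], 79.1 ± 3.04 with HC3 and 71.0 ± 1.73 with RSM, and passed in no comparison with an inhibitor (log2 fold changes of -0.16 to 0.03, adjusted p-values of 0.0969 to 0.769). *Mdm4*, a relative of Mdm2 that binds p53, rose with HC3 in either polarization (log2 fold change 0.18 without and 0.42 with IL-4), and with RSM under IL-4 (0.26). *Chek1*, a checkpoint kinase of replicating cells, fell in all 4 (-0.59 to -2.34). Among other CDK inhibitors, *Cdkn2c* (p18) fell by a log2 fold change of 1.05 to 1.49 in the 4 comparisons, and *Cdkn1c* (p57) rose with HC3 (1.37 without and 1.13 with IL-4) and fell with RSM (-1.03 and -0.94). In all, 1, 0, 1 and 0 of 5 such inhibitors rose and 2, 2, 2 and 3 fell.

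Of 14 other BCL2 family genes, 10 could be tested, of which 4, 3, 4 and 4 rose and 2, 2, 1 and 0 fell. With the replicate block, 8 rose and 1 fell for RSM in M[IL-4], while the share of all genes that changed went from 38.6% to 49.4%. *Bmf*, another BH3-only gene, fell in M[0] from 33.8 ± 1.83 to 12.9 ± 1.77 CPM (SD, n = 3) with HC3 and to 16.1 ± 2.58 with RSM (log2 fold changes -1.39 and -1.07). In M[IL-4] it fell with HC3 (-0.49, adjusted p = 0.0203) and did not pass with RSM (-0.40, adjusted p = 0.0565). *Bcl2a1a*, which encodes the protective protein A1, was called in all 4 comparisons, with log2 fold changes of 2.21 for HC3 and 3.18 for RSM in naïve cells and of 3.25 and 4.15 with IL-4. *Bcl2a1d*, another A1 gene, rose with IL-4 (1.59 for HC3 and 1.96 for RSM), and in naïve cells was at 0.36 (adjusted p = 0.226) and 0.29 (adjusted p = 0.348). Their transcripts are near-identical to each other or to further copies over 100% and 94.9% of their length, so that the counts cannot be assigned to 1 copy with certainty, and *Bcl2a1a* had at most 3 counts in a Veh M[0] library.

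Of 13 tested genes of the death receptor pathway, 5, 5, 4 and 6 rose and 4, 2, 3 and 1 fell. *Tnfrsf23*, a decoy TRAIL receptor, and *Tnfrsf26*, a related receptor gene, were called with RSM in both polarizations (log2 fold changes 1.02 to 1.43) and rose less with HC3 (0.37 to 0.80). *Tnfsf10*, which encodes TRAIL, was near the detection limit, at 0.582 ± 0.158 CPM (SD, n = 3) in Veh M[0] and 0.0861 ± 0.106 with HC3. Of 15 caspases and inhibitors of apoptosis, 3, 2, 0 and 0 rose and 8, 7, 6 and 7 fell. *Birc5* (survivin), which is also a gene of dividing cells, was called lower in 3 of the 4 comparisons (log2 fold changes of -1.08 to -1.99) and not with HC3 in M[0] (-0.53, adjusted p = 0.0615).

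Of 13 stress-related transcription factors, 6, 6, 4 and 6 rose and 3, 5, 3 and 6 fell. *Ddit3* (CHOP) went from 15.4 ± 0.867 CPM (SD, n = 3) in Veh M[0] to 155 ± 8.95 with HC3 and 122 ± 7.64 with RSM. *Atf4* went from 154 ± 2.21 to 525 ± 19.0 and 514 ± 24.7 CPM, and *Atf5* from 49.9 ± 4.10 to 344 ± 21.3 and 483 ± 16.2 CPM. *Klf4*, a differentiation factor of macrophages, went from 11.8 ± 1.31 to 84.7 ± 6.84 and 94.4 ± 5.99 CPM. All 4 were called in every comparison with an inhibitor, with log2 fold changes of 1.07 to 3.33, where 5.93%, 5.05%, 4.72% and 5.05% of all genes were called upward.

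Finally, genes whose level closely followed that of each called member were found by Pearson's r of log2 CPM over the 18 libraries, among 10055 genes of at least 5 CPM on average. As the libraries share their 6 conditions, this describes likeness of pattern, with no test. For *Cdkn1a* these included *Rplp0* (0.979), which encodes a ribosomal protein, and *Pla2g4a* (0.974), a phospholipase. For *Mcl1* they were *Ptpro* (0.976), *Cfp* (0.965) and *Mapk14* (0.965), and for *Bbc3* they were *Repin1* (0.945), *Atxn2l* (0.945) and *Sphk2* (0.944).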

How the data were processed

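RNA was measured by poly-T-selected mRNA sequencing of 18 libraries (6 groups of 3). The deposited values are raw counts per gene. Per the labels and the methods of the study, the authors used fastp for trimming and STAR for alignment to GRCm38, kept well-mapped pairs, marked but kept duplicates (Picard), and counted reads over exons with featureCounts. The annotation release and the strand setting are not given in the sources used here. Libraries held 17457796 to 19522255 counts, so lowly expressed genes such as *Tnfrsf10b* (81 to 300 counts a library) were measured less precisely.

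Symbols, positions and exonic lengths came from GENCODE vM21 (GRCm38), with a symbol for 55144 of 55385 identifiers. Genes with 10 counts or more in 2 libraries (14979) were scaled by TMM and fitted in edgeR 4.0.16 (R 4.3.3) with the quasi-likelihood test (glmQLFTest) over all 18 libraries, with a coefficient per group. The 95% intervals came from the log2 fold change and its SE, and p-values were adjusted over all genes tested (Benjamini-Hochberg). Calls needed an adjusted p under 0.05 together with a log2 fold change that reached 1 in either direction. Levels per length are CPM per kb of exon. Transcripts were compared for near-identical copies with blastn 2.17.0 (98% over 100 bases), and promoters were read from RefSeq. The fit was tested on simulated data with known fold changes, set in genes of high counts and with no replicate effect. Those changes were larger than the ones seen for the 10 genes, so it does not cover changes of their size.

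The 10 genes and all gene lists were chosen with earlier results of these data known. All 10 genes are described. From each other list, genes called in 2 or more of the 4 inhibitor comparisons in 1 direction were named, at most 4 per list by rank of adjusted p, and *Trp53*, *Mdm4*, *Atf4* and *Ddit3* always. The 3 genes most like each called member were taken by Pearson's r. Some items under these rules are not reported here.

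The labels share replicate numbers between groups. Deviations from group means of same-numbered libraries correlated at 0.110 to 0.372 within a polarization (18 of 18 pairs over 0.1), and across polarizations in 12 of 27 pairs over 0.1. The main fit has no term for the replicate number, so its SEs, intervals and p-values leave any pairing out. In the replicate block of the text, the numbers were taken as pairs within each polarization, from this correlation and not from a label. For M[IL-4] against M[0] this block takes spread between replicate numbers out of the error, so its p-values there can be too small. Replicates of a group differed by 6.30 to 20.3 in chi-square per gene, more than counting alone. The p-values measure the spread between these libraries. Alternatives were the block (common to all, or within each polarization), a fit of the compared groups alone, no count filter, filterByExpr, DESeq2 1.42.0, library size only, RLE factors, removal of mitochondrial genes, and omission of each replicate number in turn.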

Additional observations from a re-analysis of the deposited data

Results flagged for a closer look

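The values below are differences between polarizations in the log2 effect of an inhibitor (the effect in M[IL-4] minus that in M[0]), each of which passed the interaction term of the edgeR quasi-likelihood fit (Benjamini-Hochberg over all genes tested). No cause of them was tested. Of the 10 genes, *Cdkn1a* stood out for both inhibitors, at -0.40 for HC3 (adjusted p = 0.00416) and -0.30 for RSM (adjusted p = 0.0202), and *Pmaip1* for RSM at 0.62 (adjusted p = 0.0277).

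Among stress transcription factors, *Klf4* differed most, at -1.78 for HC3 (adjusted p = 2.61e-07) and -1.75 for RSM (adjusted p = 8.35e-08). *Atf5* was at -0.89 for HC3 (adjusted p = 0.000254) and -0.91 for RSM (adjusted p = 0.000103). *Atf4* was at -0.56 for HC3 (adjusted p = 0.000204) and -0.62 for RSM (adjusted p = 3.49e-05), and *Ddit3* at -0.45 (adjusted p = 0.0381) and -0.52 (adjusted p = 0.0119). All 4 rose less in M[IL-4], where they began from a higher level under Veh. In the same fit, M[IL-4] exceeded M[0] with Veh by a log2 fold change of 2.68 for *Klf4* (adjusted p = 2.39e-13). It did so by 1.10 for *Atf5* (adjusted p = 2.77e-08), 0.61 for *Atf4* (adjusted p = 8.52e-08) and 0.53 for *Ddit3* (adjusted p = 0.000293).

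Of the p53 lists, *Sesn1* fell less in M[IL-4], by 0.83 for HC3 (adjusted p = 0.00334) and 0.54 for RSM (adjusted p = 0.0373). *Mdm4* was at 0.32 for RSM (adjusted p = 0.0377) and *Chek1* at -1.43 for RSM (adjusted p = 0.00547). In the BCL2 family, *Bmf* was at 0.89 for HC3 (adjusted p = 0.0186). It began from a lower level in M[IL-4] than in M[0] under Veh (log2 fold change -1.61, adjusted p = 1.46e-07). *Bcl2a1d*, whose counts cannot be told from its copies, was at 1.23 for HC3 (adjusted p = 0.0228) and 1.67 for RSM (adjusted p = 0.00165). *Cdkn2c* was at -0.44 for HC3 (adjusted p = 0.0421).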

How the results depend on the processing

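Over the 110 results of the 10 genes (11 comparisons) and 12 alternatives, 1217 of 1320 values kept their direction and their side of the adjusted p, 80 changed side and 23 changed sign. The cause of these changes was not tested. None of the results that changed sign had passed. Against Veh these were *Bcl2l1* with RSM in M[0] (0.0061 without replicate 3, range over left-out replicates -0.24 to 0.0061) and *Pmaip1* with HC3 in M[IL-4] (0.0053 with library size only, range -0.16 to 0.11). For IL-4, *Bbc3* ranged from -0.25 to 0.37 with HC3 and from -0.040 to 0.39 with RSM, negative without replicate 1 in both. In the RSM interaction, *Mdm2* was at -0.014 with DESeq2, -0.015 with no count filter, -0.0029 with library size only, -0.014 with RLE factors and -0.0095 without mitochondrial genes, with a range of -0.075 to 0.052 over left-out replicates. There *Bax* ranged from -0.050 to 0.012, *Bcl2* from -0.20 to 0.073 and *Tnfrsf10b* from -0.061 to 0.00051. For HC3 against RSM, *Tnfrsf10b* in M[0] ranged from -0.16 to 0.072. In M[IL-4], *Mdm2* was at 0.0018 with no count filter and 0.0014 without mitochondrial genes (range -0.021 to 0.014), *Bcl2l1* ranged from -0.057 to 0.049 and *Bcl2* from -0.0022 to 0.086.

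The number of the 10 genes called with HC3 in M[IL-4] was 1, and 0 to 1 when a replicate was left out (0 without replicate 1, when *Bbc3* was lost). With RSM in M[IL-4] it was 1, and 2 with library size only, when *Bbc3* was gained.

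Counts of all genes called fell when a replicate was left out, which leaves 2 libraries a group. They were 346 to 553 for IL-4 with HC3 (594 in full), 421 to 554 for IL-4 with RSM (638), 46 to 146 for the HC3 interaction (186), 128 to 278 for the RSM interaction (321), 256 to 412 for HC3 against RSM in M[0] (456) and 217 to 380 in M[IL-4] (419), lowest without replicate 3 in each. With the replicate block within each polarization, the HC3 interaction gave 288. This block changed the call of none of the 10 genes, and moved no adjusted p across the threshold other than those given above.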
